A study of Homo sapiens with 6 samples.

Results

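RNA polymerases and their general transcription factors were followed as a set of 79 genes out of 19364 in a genome-wide CRISPR knockout screen, through 316 of its 77441 guide RNAs (gRNAs). Members were chosen by gene symbol alone: subunits of RNA polymerases I, II and III (POLR1, POLR2 and POLR3 genes), genes whose symbols begin with GTF2 or GTF3, and the TBP-associated factors (TAF genes). Each member had 4 gRNAs. By symbol they were 30 POLR genes, 25 GTF genes and 24 TAFs, called polymerase subunits, general transcription factor genes and TAFs below. The POLR genes include POLR2M, a Pol II-associated inhibitor, and the GTF genes include the 4 of the TFII-I family. Some subunits stood in the library under symbols outside this rule (CRCP of Pol III, and ZNRD1, TWISTNB and CD3EAP of Pol I) and were counted among 42 other genes of the pathway.

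All cells were IMR32, a human MYCN-amplified neuroblastoma line, made to express Cas9 and transduced with the Brunello knockout library. They were grown alone (IMR32 alone), with CD14-depleted lymphocytes of healthy blood donors (coculture), or with the same lymphocytes plus the anti-PD-1 antibody nivolumab at 10 µg/ml (coculture with nivolumab), and adherent cancer cells were harvested on day 5. Each of the 3 groups had 2 libraries, 1 in screen 1 and 1 in screen 2, which used different lymphocyte donors and different ratios of lymphocytes to cancer cells. The library was transduced in duplicate, and the sources used here do not say whether each screen had a transduction of its own. Whatever differed between the screens cannot be told apart. The study asked which genes of the cancer cells alter survival in coculture when PD-1 is blocked.

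RNA polymerase I transcribes ribosomal RNA, polymerase II messenger RNA, and polymerase III transfer RNA, 5S ribosomal RNA and other small RNAs. A core of subunits is shared between the enzymes, and each also has subunits of its own. Pol II is placed at promoters by TFIID, made of TBP and TAFs, together with TFIIA, TFIIB, TFIIE, TFIIF and TFIIH, while Pol I uses the TBP-TAF complex SL1 and Pol III uses TFIIIA, TFIIIB and TFIIIC. Most of these proteins are needed by any dividing cell, so that knockout cells are usually lost from a pooled screen.

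The deposited values are reads per gRNA normalized to the same total in every library, and every value is a whole multiple of a step. If 1 step stands for 1 read, which the sources used here do not state, the depth was 58554842 to 79924251 reads. The level of a gRNA is its log2(normalized reads + 1) minus the library's median over 1496 gRNAs against 374 olfactory receptor genes, which these cells are not expected to need. A gene level is the median over its gRNAs. A level of 0 thus means as frequent as the olfactory receptor gRNAs. The plasmid pool and the cells before selection were not analysed here, so a level at harvest holds the starting frequency of a gRNA as well as its loss.

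In IMR32 alone the members lay low as a group, polymerase subunits most of all. The median member level was -0.49 in screen 1 and -0.75 in screen 2, against -0.21 and -0.22 for all genes. A gene was counted as below the neutral range where its level lay under the 5th percentile of olfactory receptor genes in both libraries of IMR32 alone, at -0.66 in screen 1 and -0.76 in screen 2. This held for 29 of 79 members (36.7%), against 13.4% of all genes and 15 of 374 olfactory receptor genes (4.01%). With the 1st percentile as the limit 5 members lay below it, against 1.72% of all genes. Among the 42 other pathway genes it held for 16 (38.1%). In 29 members all 4 gRNAs lay below 0 in both libraries, against 16.4% of all genes.

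The count differed between the classes. Of the 30 polymerase subunits 19 lay below the range, with a median level of -0.95. Of the 25 general transcription factor genes 5 did, with a median of -0.43, among them GTF2IRD2B of the TFII-I family. Of the 24 TAFs 5 did, with a median of -0.40. Over all genes the share was 13.4%. These shares are a description over related genes, which are not replicates, and were not tested against each other.

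**Figure D1:**
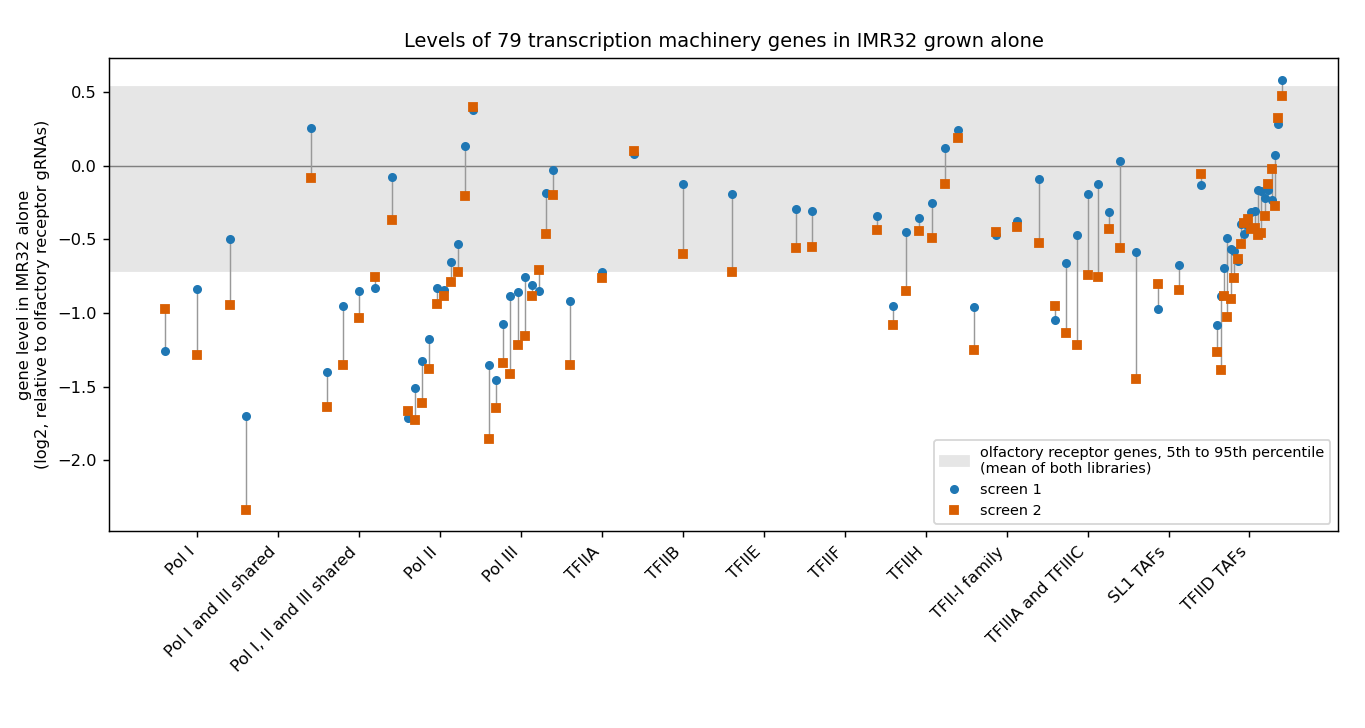
Gene level in IMR32 alone (vertical axis, log2 relative to the median olfactory receptor gRNA) for each of the 79 members, sorted within 14 functional groups. Circles are screen 1, squares screen 2, and the grey band runs from the 5th to the 95th percentile of olfactory receptor genes. Polymerase subunits fill most of the space under the band, with POLR1C lowest. Most of the group labelled TFIID TAFs, which also holds TAFs of related complexes, lie inside the band.

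The lowest member was POLR1C, a subunit shared by Pol I and Pol III. Its level was -1.70 and -2.34 in IMR32 alone (screen 1, then screen 2), -2.03 and -2.05 in coculture, and -2.10 and -2.25 in coculture with nivolumab. The mean in IMR32 alone was -2.02 ± 0.45 (SD, n = 2), or 24.7% of the median olfactory receptor gRNA, which put it at rank 59 from the lowest of 19364 genes. All 4 of its gRNAs were under 0 in every library. Its partner in the same shared heterodimer, POLR1D, was at 0.26 and -0.08 in IMR32 alone. The gRNAs of POLR1D did not behave alike, since POLR1D_2 averaged -2.25 and another gRNA 0.61.

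Of the Pol I subunits, POLR1A, the largest, stood at -1.26 and -0.97, and POLR1B, the other part of the catalytic core, at -0.84 and -1.28. Both lay below the range. POLR1E, a subunit of the Pol I-specific dimer, stood at -0.50 and -0.94 and did not, because of screen 1.

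Of the 5 subunits common to all 3 enzymes, 3 lay below the range. POLR2L was the lowest at -1.40 and -1.64, followed by POLR2H at -0.95 and -1.35 and POLR2F at -0.85 and -1.03. POLR2E, at -0.83 and -0.76, narrowly missed the count, since its level in screen 2 lay just above the percentile and rounds to the same value. POLR2K, also common to all 3, stood at -0.07 and -0.37, inside the olfactory receptor range.

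Of the 10 Pol II genes 6 lay below the range. POLR2B, the second largest subunit, was at -1.71 and -1.66 in IMR32 alone, -1.53 and -1.51 in coculture, and -1.25 and -1.85 in coculture with nivolumab. That is 31.1% of the median olfactory receptor gRNA in IMR32 alone. It did not rest on all gRNAs, since POLR2B_3 averaged 0.42 while the lowest gRNA averaged -2.59. POLR2A, the largest subunit, which carries the repeat tail that is phosphorylated during transcription, was higher, at -0.83 and -0.94. The ranges of POLR2A and POLR2B over the 6 libraries did not overlap.

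Pol III had the largest share of members below the range among groups of more than 5 genes, 7 of 10. POLR3K was at -1.35 and -1.85, with all 4 gRNAs below 0 in both libraries. The largest subunit, POLR3A, stood at -0.76 and -1.15, and POLR3B, which completes the catalytic centre, at -0.88 and -1.42. The range of the 10 genes reached up to POLR3G, at -0.03 and -0.20.

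Among factors of Pol II initiation 2 of 14 genes in TFIIA, TFIIB, TFIIE, TFIIF and TFIIH lay below the range, where 13.4% of all genes did. The 2 genes were GTF2A2, the small subunit of TFIIA, at -0.92 and -1.35, and GTF2H1, a core subunit of TFIIH, at -0.95 and -1.08. GTF2B, the single-chain factor TFIIB, stood at -0.12 and -0.60. Both TFIIE genes and both TFIIF genes had means between -0.46 and -0.39. GTF2B had all 4 gRNAs below 0 in both libraries although its level was inside the range.

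In TFIIIA and TFIIIC, the factors that recruit Pol III machinery to 5S and transfer RNA genes, 2 of 7 genes lay below the range. GTF3A, which binds the 5S gene, stood at -1.05 and -0.95, and GTF3C4 at -0.66 and -1.14. GTF3C5 was the highest at 0.04 and -0.56.

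The TAFs divide into the SL1 subunits of Pol I and those of TFIID and related complexes. In SL1, TAF1A (-0.97 and -0.80) and TAF1C (-0.67 and -0.84) lay below the range, whereas TAF1B, at -0.59 and -1.45, did so only in screen 2. TAF1D stood at -0.13 and -0.06. Of the 20 TFIID-type TAFs 3 lay below the range (TAF12, TAF6 and TAF8), where 13.4% of all genes did. TAF12, a histone-fold subunit, was at -1.08 and -1.27. TAF6, also a histone-fold subunit of TFIID, was at -0.89 and -1.39, and TAF8 at -0.69 and -0.89. TAF8 was named after its values were seen. TAF9B was the highest of the 79 members, with levels of 0.58 and 0.48 in IMR32 alone, 0.60 and 0.53 in coculture, and 0.52 and 0.47 in coculture with nivolumab.

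The level of TAF6 rests partly on TAF6_1, the only member gRNA with a value of 0 in any library. It had 0 reads in all 6 libraries, and a floor of 3 reads allows at most 0.361% of the median olfactory receptor gRNA. Without it TAF6 stood at -0.39 and -0.87 in IMR32 alone, and would not count as below the range in screen 1. Whether this gRNA was present in the starting pool was not tested.

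The gRNAs of a gene often disagreed. The distance between the highest and lowest gRNA of a gene had a median of 1.46 on the log2 scale over the members, against 1.25 over all genes and 1.19 over olfactory receptor genes, and exceeded 1 in 60 of 79 members (75.9%) against 66.0% of all genes. Counted singly, 52 of 316 member gRNAs (16.5%) lay under the 5th percentile of olfactory receptor gRNAs in both libraries of IMR32 alone, against 7.88% of all gRNAs. In 40 members no gRNA did, in 28 members 1 did, in 9 members 2 did and in 2 members 3 did. This split by gene was not counted over all genes, so it has no background to be set against.

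Among the 42 other pathway genes, SNAPC1, a subunit of the complex that serves small nuclear RNA promoters, was the lowest, with a mean of -1.44 and a level of -1.88 in screen 2. SUPT6H, a Pol II elongation factor, followed at -1.25 and -1.40, and RPAP2, which dephosphorylates the Pol II tail and helps Pol II enter the nucleus, at -1.18 and -1.36. The highest was TCEA3, a tissue-restricted form of the elongation factor TFIIS, at 0.16 and 0.39.

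Several members have close relatives, and some of these pairs separated. TAF4, a core TFIID subunit, stood at -0.65 and -0.63, whereas TAF4B, its germ-line-enriched relative, stood at 0.28 and 0.32. TAF9 stood at -0.31 and -0.43 against 0.58 and 0.48 for TAF9B. TAF1, the largest TFIID subunit, stood at -0.58 and -0.76 against -0.16 and -0.12 for TAF1L, a retrogene of TAF1. In each of these 3 pairs the ranges over the 6 libraries did not overlap.

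In the Pol III pair the -like gene was the lower. POLR3GL stood at -0.85 and -0.71, with all 4 gRNAs below 0, and POLR3G, the form known from pluripotent cells, at -0.03 and -0.20. In the TFIIA pair GTF2A1 stood at -0.72 and -0.76 and its germ-cell relative GTF2A1L at 0.08 and 0.10. TAF5 and TAF5L overlapped, at -0.41 and -0.36 against -0.40 and -0.53, and so did TAF7 (0.07 and -0.27) and TAF7L (-0.23 and -0.02). TAF6 (-0.89 and -1.39) and TAF6L (-0.49 and -1.03) overlapped too, and all 4 gRNAs of TAF6L lay below 0. Without TAF6_1, TAF6 stood at -0.39 and -0.87.

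**Figure D2:**
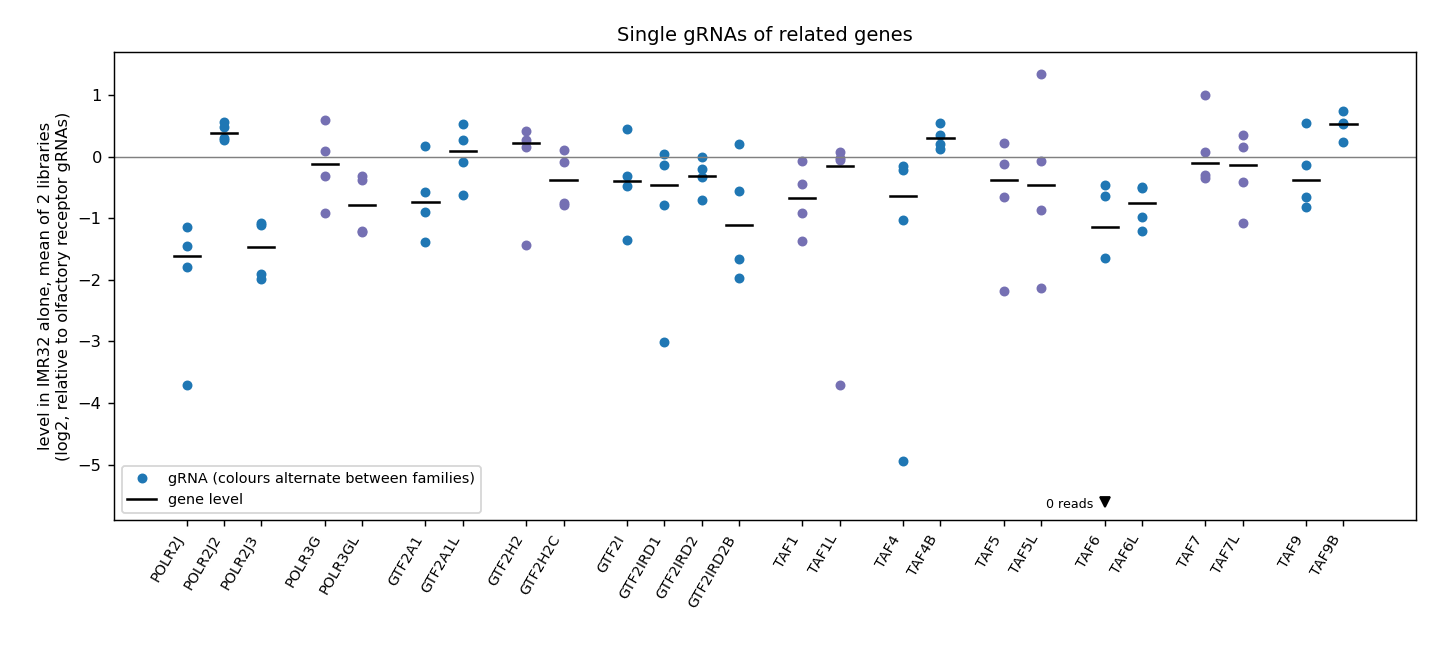
Levels of the single gRNAs (points, mean of both libraries of IMR32 alone, log2 relative to the median olfactory receptor gRNA) and gene levels (bars) in 11 families of related members. All 4 gRNAs of POLR2J2, TAF4B and TAF9B lie above 0, and all 4 of POLR2J and POLR2J3 lie below -1. The triangle marks TAF6_1, which had 0 reads and lies off the scale.

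Some relatives share DNA as well as function, so that 1 gRNA can cut several genes. In the coding exons of the 79 members on GRCh38, every 20-base site followed by an NGG motif (the PAM that Cas9 needs) was searched for further exact copies in the genome. In 10 members over 50% of such sites had another copy, while the median over members was 0.76%. The sequences of the library's gRNAs were not used here, so which of these sites they target was not known. The sites below are examples of those shared, shown because a gRNA against any of them would reach all the genes named, with the PAM in capitals.

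POLR2J, POLR2J2 and POLR2J3: gaacgactcgaaggctggagGGG

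GTF2H2 and GTF2H2C: aacctgaaagaactaagcgaTGG

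GTF2IRD2 and GTF2IRD2B: cagggtggacactgctacctGGG

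TAF1 and TAF1L: gctggagggggaaagcgtctTGG

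On GRCh38 the site of the first line lies in coding exons of POLR2J (chr7:102478831-102478853), POLR2J2 (chr7:102671572-102671594) and POLR2J3 (chr7:102572492-102572514), on the plus strand in each case and so antisense to these genes, and has 4 copies in the genome. Of 49 sites in POLR2J, 41 were shared with both relatives. The site of GTF2H2 (chr5:71062731-71062753, minus strand) and GTF2H2C (chr5:69565143-69565165, plus strand) was 1 of 67 they share and had 3 copies. That of GTF2IRD2 (chr7:74836352-74836374, plus strand) and GTF2IRD2B (chr7:75108969-75108991, minus strand) was 1 of 290, and that of TAF1 (chrX:71366467-71366489, plus strand) and TAF1L (chr9:32635408-32635430, minus strand) 1 of 257, each with 2 copies.

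POLR2J encodes a small Pol II subunit, and members of its family lay far apart. POLR2J was at -1.51 and -1.73 in IMR32 alone, -1.45 and -1.68 in coculture, and -1.60 and -1.57 in coculture with nivolumab. POLR2J3 was at -1.33 and -1.61, -1.21 and -1.66, and -1.64 and -2.03 in the same order. POLR2J2 was at 0.38 and 0.40, 0.29 and 0.42, and 0.34 and 0.36, above 0 in every library. In normalized reads the 4 gRNAs of POLR2J2 had 1192 to 1509 in IMR32 alone and those of POLR2J3 203 to 558. Sites with another copy made up 91.8% of those in POLR2J, 98.7% in POLR2J3 and 89.8% in POLR2J2, with up to 71 copies for a site of POLR2J3 and 52 for a site of POLR2J2. The part of shared sites in these levels was not tested.

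In the TFIIH pair, GTF2H2 stood at 0.24 and 0.19 and GTF2H2C at -0.25 and -0.49, with 97.1% and 97.2% of sites in further copies. Of the 4 gRNAs of GTF2H2, GTF2H2_3 was far under the others at -1.21 and -1.67. In the TFII-I family, GTF2IRD2B stood at -0.96 and -1.25 and GTF2IRD2 at -0.09 and -0.52, with 99.0% and 94.2% of sites in further copies. Of the 4 gRNAs of TAF1L, TAF1L_4 stood at -3.78 and -3.63 and the others between -0.30 and 0.44. Which of the shared sites these gRNAs target was not known, and the part of shared sites in these levels was not tested.

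With lymphocytes, the number of members below the neutral range was close to that in IMR32 alone. In coculture 27 members lay below the 5th percentile of olfactory receptor genes in both libraries (34.2%, against 11.8% of all genes), and with nivolumab 28 did (35.4%, against 11.9%). In 22 members (27.8%) the level lay under it in all 6 libraries, against 9.60% of all genes, and 33 members (41.8%) were not under it in any, against 76.8% of all genes. The median member level was -0.56 and -0.79 in coculture and -0.52 and -0.77 with nivolumab.

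The 3 comparisons between conditions were tested with limma over all 19364 genes, with the screen as a block. Between coculture and IMR32 alone 0 members passed an adjusted p of 0.05 in limma, where 0% of all genes did, and 2 members and 1006 of all genes had an unadjusted p under 0.05. The median log2 ratio over the members was -0.014, against -0.0020 over all genes. Each gene was given a score per screen, namely the median of its gRNAs' log2 ratios. POLR2M, a Pol II-associated inhibitor named after its values were seen, was among those with an unadjusted p under 0.05 and had scores of -0.29 in screen 1 and 0.10 in screen 2 (limma log2 ratio -0.31, standard error 0.09, adjusted p = 0.676).

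No member passed the cut-offs in both screens. A score more than 2 SD below the mean of all genes in both screens was found in 0 members, against 0.0826% of all genes, and more than 2 SD above in 0 members, against 0.124%. TAF1L came nearest from below, with -0.33 and -0.22 against cut-offs of -0.23 and -0.24. POLR2D (0.15 and 0.17) and POLR3D (0.13 and 0.11) had the highest mean scores, inside the cut-offs. Across the 79 members the correlation of scores between screens was -0.14, against 0.0088 across all genes. The points share libraries and so are not independent.

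Between coculture with nivolumab and IMR32 alone, limma called 0 members at an adjusted p of 0.05, where 0% of all genes passed, and 6 members and 1038 of all genes had an unadjusted p under 0.05. These 6 were POLR2J3, TAF5, TAF5L, TAF1C and TAF10 on the low side and GTF3C5 on the high side, and TAF10 was named after its values were seen. The median log2 ratio was -0.022, against -0.00055 over all genes. In both screens 0 members lay more than 2 SD below the mean (0.0878% of all genes did) and 0 above (0.0981%). POLR2J3 had the lowest mean score, with -0.31 and -0.15, and POLR2B the highest, with 0.35 and 0.02. This comparison and the first share the libraries of IMR32 alone.

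Between coculture with nivolumab and coculture, the comparison that isolates the antibody, limma again called 0 members at an adjusted p of 0.05, where 0% of all genes passed. An unadjusted p under 0.05 was found for 6 members and 916 of all genes. The median log2 ratio was -0.0069, against 0.0016 over all genes. A score beyond 2 SD in both screens was found in 0 members below (0.134% of all genes) and 0 above (0.062%). The correlation of scores between screens was 0.09 across the members, against -0.0094 across all genes.

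The members with the lowest scores under nivolumab were POLR2J3 (-0.47 and -0.19), TAF5, a scaffold subunit of TFIID (-0.16 and -0.32), and TAF2 (-0.36 and -0.06). The limma log2 ratio was -0.39 for POLR2J3 (standard error 0.15) and -0.29 for TAF5 (standard error 0.10), with an adjusted p of 0.999 for both. The level of TAF5 was -0.32 and -0.46 in coculture and -0.49 and -0.87 with nivolumab. The highest scores were those of GTF2IRD1, a TFII-I family protein (0.41 and 0.17), POLR3A (0.13 and 0.20) and POLR3G (0.07 and 0.21). GTF2IRD1 stood at -0.82 and -0.47 in coculture and -0.46 and -0.30 with nivolumab, but at -0.47 and -0.45 in IMR32 alone, so that in screen 1 the coculture library is the one apart.

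**Figure D3:**
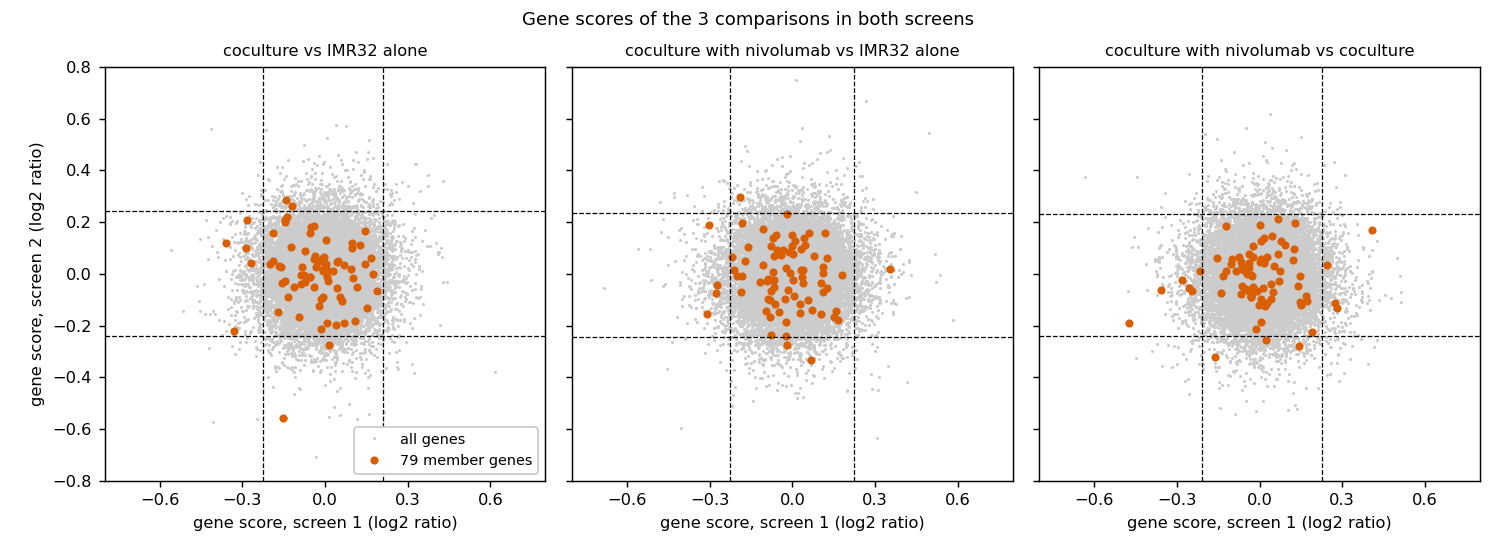
Gene scores (log2 ratio within a screen, median over gRNAs) in screen 1 (horizontal) and screen 2 (vertical) for the 3 comparisons, with all 19364 genes in grey and the 79 members in orange. Dashed lines mark 2 SD from the mean of all genes, and no orange point lies in a corner beyond both cut-offs.

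The larger difference ran between the screens. Comparing the 3 libraries of screen 2 with the 3 of screen 1 in the same limma fit, 26 of 79 members (32.9%) were lower in screen 2 at an adjusted p of 0.05, against 8.25% of all genes, and 0 were higher, against 5.55%. Of the 374 olfactory receptor genes, 18 were called lower and 14 higher. The median difference over the members was -0.18, against -0.0018 over all genes and 0.0013 over olfactory receptor genes. The difference was negative in 68 of 79 members (86.1%), against 50.4% of all genes and 49.5% of olfactory receptor genes. This comparison was added after the data were seen, and no source says that libraries of a screen came from separate transductions, so the p-values measure only the spread between libraries within a screen.

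Among member groups of more than 5 genes, Pol III and the group of TFIIIA and TFIIIC had the largest shares called lower. These were 6 of 10 Pol III subunits and 5 of 7 genes of TFIIIA and TFIIIC. The largest differences among the members were in GTF3C6, POLR3K and GTF3C3. GTF3C6 and GTF3C3, both TFIIIC subunits, were named after their values were seen, as was GTF3C2. The level of GTF3C6 was -0.12, 0.02 and -0.15 in screen 1 (IMR32 alone, coculture, coculture with nivolumab) and -0.75, -0.75 and -0.78 in screen 2. The screens did not overlap, and the difference was -0.68 (standard error 0.08, limma adjusted p = 1.13e-10). It came from GTF3C6_2 and GTF3C6_4, each near 0 in screen 1 and at -0.52 or below in screen 2, while GTF3C6_3 was under -2 in all 6 libraries. Of the Cas9 sites in GTF3C6, 55.0% had another copy in the genome, and their part in its level was not tested.

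GTF3C3 stood at -0.19, -0.23 and -0.28 in screen 1 and -0.75, -0.85 and -0.83 in screen 2, a difference of -0.58 (standard error 0.08, limma adjusted p = 8.18e-08). All 4 of its gRNAs were lower in screen 2 in each condition. POLR3K stood at -1.35, -1.40 and -1.41 against -1.85, -1.85 and -2.23, a difference of -0.59 (standard error 0.13, limma adjusted p = 0.00034). POLR3A differed by -0.53, GTF3C2 by -0.50, GTF3C5 by -0.49 and GTF3C4 by -0.44. GTF3A, the 5S-specific factor, differed by 0.02 and was not called.

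In the other classes fewer genes were called. They were 2 of 3 Pol I subunits (POLR1B and POLR1E), POLR1D, POLR2H and POLR2K of the shared subunits, and 2 of 10 Pol II genes, POLR2A and POLR2J3. Of the factors, GTF2A2, GTF2B, GTF2E2 and GTF2H3 were called lower. Of 20 TFIID-type TAFs 3 were (TAF6L, TAF5L and TAF2), and of 4 SL1 TAFs 1, TAF1B. POLR2B, POLR2J and TAF12, which were low in IMR32 alone, were not among them. The 26 genes and the 29 below the neutral range in IMR32 alone had 12 in common, 46.2% of the former and 41.4% of the latter. Among the 42 other pathway genes 19 were called lower in screen 2 and 2 higher. The largest differences there were in TFB2M (-0.67) and SNAPC5 (-0.60), both named after their values were seen.

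**Figure D4:**
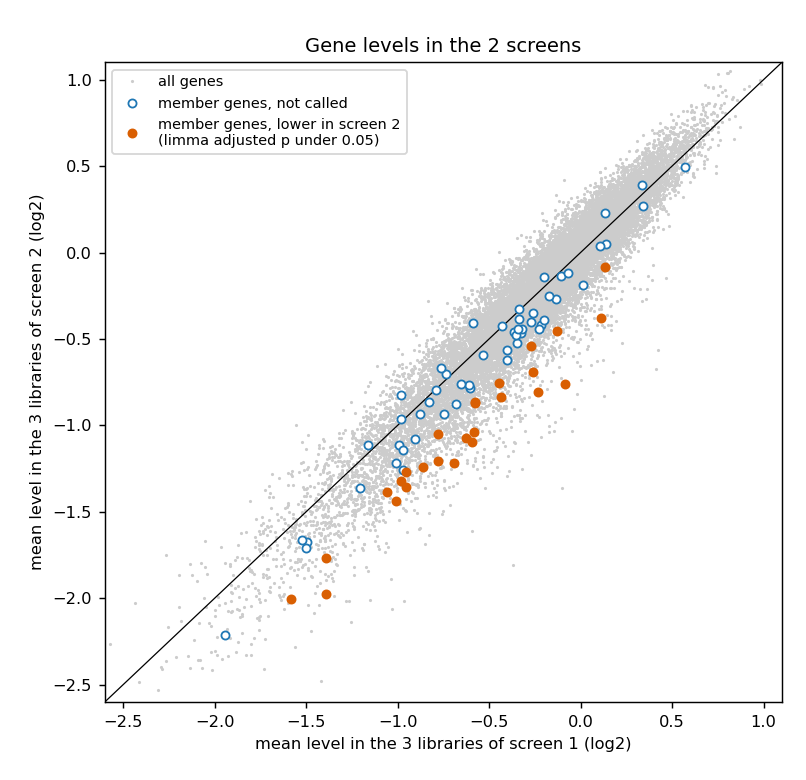
Mean level over the 3 libraries of screen 1 (horizontal) and of screen 2 (vertical), log2 relative to the median olfactory receptor gRNA, with the diagonal of equal levels. Grey points are all genes except 14 outside the axes, open circles members that were not called, and filled circles the 26 members lower in screen 2, all of which lie under the diagonal.

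The difference was present without lymphocytes. In IMR32 alone the median member level was -0.49 in screen 1 and -0.75 in screen 2, while the median of all genes was -0.21 and -0.22 and the 5th percentile of olfactory receptor genes -0.66 and -0.76. Leaving out any 1 of the 6 libraries reduced the 26 genes called to between 16 and 20. The share of all genes called lower then went from 8.25% to between 4.74% and 5.53%.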

How the data were processed

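Genomic DNA of adherent IMR32 cells from 6 libraries (3 groups, 2 screens) was amplified over the gRNA cassette and sequenced by the authors, who name MAGeCK (version not given in the sources used here) and an analysis of unique molecular identifiers (UMIs). The deposited values are a signal, reads per gRNA that the authors normalized to an equal total in each library, and 0 columns were left out. Values were whole multiples of a step, whose totals were taken as depth on the assumption that 1 step is 1 read. If UMIs were not collapsed, reads are not independent molecules, and the floor of 3 reads covers counting error only.

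From this signal, log2(value + 1) was taken per gRNA, the median olfactory receptor gRNA of the library was subtracted, and the median over gRNAs gave the gene level. A log2 ratio on this scale understates changes of gRNAs with few reads. Gene levels were fitted with limma 3.58.1 (lmFit, eBayes with trend, R 4.3.3) on all libraries and 19364 genes, with group and screen as terms, and adjusted by Benjamini-Hochberg. The fit had 116.7 moderated degrees of freedom. Run on simulated data, it did not recover the smallest changes set there, so a small change can go uncalled. Libraries of the same number belong to a screen by their labels, and their deviations from the group means correlated at 0.49 to 0.50. Gene scores were also set against the mean ± 2 SD of all genes in each screen, which is the study's kind of cut-off. The labels do not say that libraries came from separate cultures, so p-values may measure technical spread.

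Named were, in each functional group, the 2 lowest genes and the highest in IMR32 alone, the listed families of related genes, and in each comparison the 3 lowest and 3 highest mean scores (58 genes in all). Others are said to be named after their values were seen, and 1 gene that the rule names is not reported here. The members and gene lists were chosen with earlier results of these data known. Cas9 sites came from GENCODE v44 coding exons on GRCh38, matched by symbol for all 79 members. Python 3.11.15 (pandas 2.3.3, numpy 2.4.6) made the tables and matplotlib 3.10.9 the figures. Alternatives were another gRNA summary, pseudocount, gRNA minimum, scaling, cut-off or library set, and no screen block.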

Additional observations from a re-analysis of the deposited data

How the results depend on the processing

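The count of 29 members below the olfactory receptor range in IMR32 alone ran from 24 to 36 under the other summaries, filters and library sets. The share of all genes then ran from 10.8% to 17.7%, against 13.4%. With the 1st percentile of olfactory receptor genes as the limit the count was 5, against 1.72% of all genes. Without the screen 1 library of IMR32 alone it was 36 (16.35% of all genes), and without that of screen 2 it was 32 (17.7%). Only 1 library then had to lie below. In both screens 0 members lay beyond 2 SD. With 1 screen left out, 4 to 5 members did between coculture and IMR32 alone, 3 to 5 between coculture with nivolumab and IMR32 alone, and 3 to 10 between coculture with nivolumab and coculture, because only 1 cut-off then had to be passed. Of all genes 2.34% to 2.64% then lay below and 2.22% to 2.44% above. The median log2 ratio for nivolumab against coculture was -0.021 with the mean over gRNAs, against -0.0069, and the cause was not tested. The replicate block cannot change the median log2 ratios of -0.014, -0.022 and -0.0069, since each group had 1 library in each screen. Without the block limma called 0 members in each of the 3 comparisons. The members at an unadjusted p under 0.05 were then 1, 0 and 0, against 2, 6 and 6 with the block. Over all genes the counts were 212, 200 and 179, against 1006, 1038 and 916 with the block. The 26 members lower in screen 2 became 26 to 31 under other summaries, scalings and filters and 16 to 20 with 1 library left out, where fewer libraries entered the fit. Leaving out the nivolumab library of screen 1 gave 16 (4.80% of all genes called lower) and that of screen 2 gave 17 (4.95%). The planned count test on whole reads was not run. What depth limits was not tested, since the depth rests on taking 1 step as 1 read.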
